A study of Mus musculus with 20 samples.

Results

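The loci of 4 transcription factor genes that support hematopoietic stem cell (HSC) self-renewal, Meis1, Mecom, Hlf and Prdm16, were examined in lists of histone modification peaks from fetal and adult mouse HSCs. Peaks were chosen by position alone: every peak that overlapped 1 of 4 windows on the mm9 assembly was taken. The windows were chr11:18770001-18930000 for Meis1 (gene ID 17268), chr3:29840001-30420000 for Mecom (14013), chr11:90140001-90260000 for Hlf (217082) and chr4:153680001-154020000 for Prdm16 (70673). They span 160, 580, 120 and 340 kb. Together they held 264 of the 218887 peaks listed on chromosomes 1 to 19, X and Y, with 99 at Meis1, 75 at Mecom, 25 at Hlf and 65 at Prdm16. The fetal group was B6129SF1 HSCs from fetal liver at embryonic day 14.5, and the adult group was B6129SF1 HSCs from the bone marrow of mice 6 to 8 weeks old. Both were sorted as lineage-negative, Sca1-positive, cKit-positive and CD135-negative cells, a gate that is known to hold some multipotent progenitors beside stem cells, and 50000 cells went into each chromatin immunoprecipitation. H3K4me3, H3K27ac, H3K4me1, H3K27me3 and input each had 2 samples per stage, but each mark is represented by 1 combined peak list per stage. A value therefore has no replicate error, no test between stages was possible, and a stage difference cannot be told apart from a difference between libraries, their depth or the peak calls. The read depth of the lists is unknown, and the identity of the sorted cells was not checked against marker genes here.

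H3K4me3 marks active and poised promoters, H3K27ac marks active promoters and enhancers, H3K4me1 marks enhancers and the flanks of promoters, and H3K27me3 is laid down by Polycomb repressive complexes. Meis1 is a homeodomain protein of the TALE class that binds DNA with Hox and Pbx proteins. Mecom encodes zinc finger proteins, with a long form started far upstream that carries a PR domain (Mds1-Evi1) and a short form started inside the gene (Evi1). Prdm16 is a PR domain zinc finger protein related to Mecom, and Hlf is a basic leucine zipper protein of the PAR family. All are known to be needed for, or to mark, long-term repopulating HSCs. RefSeq (GRCm38.p6) places all 4 genes on the minus strand, so each gene's 5' end faces the upper coordinate of its window. The mm9 positions of their start sites were not determined, so an H3K4me3 region is described here by its place in the window and not assigned to a start site.

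The promoter sequences of the 4 genes are shown because the widest H3K4me3 peaks described next lie toward the 5' side of the genes, and CpG-rich promoters are the usual sites of this mark. Each line gives the 250 bases before an annotated start in RefSeq (GRCm38.p6, minus strand), 5' to 3', with CpG dinucleotides in capitals. Mecom has 2 entries, the start at the 5' end of the gene and the internal start.
Meis1: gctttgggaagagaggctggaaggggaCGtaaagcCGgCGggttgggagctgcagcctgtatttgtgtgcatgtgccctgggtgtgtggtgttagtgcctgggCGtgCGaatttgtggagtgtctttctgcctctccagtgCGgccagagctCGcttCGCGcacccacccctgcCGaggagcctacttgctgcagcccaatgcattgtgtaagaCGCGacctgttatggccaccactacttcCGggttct
Mecom 5' start: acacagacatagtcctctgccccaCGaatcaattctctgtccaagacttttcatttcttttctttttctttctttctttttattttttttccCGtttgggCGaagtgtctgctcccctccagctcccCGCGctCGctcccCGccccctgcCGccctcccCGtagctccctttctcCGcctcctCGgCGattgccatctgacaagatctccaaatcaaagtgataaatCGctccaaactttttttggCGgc
Mecom internal start: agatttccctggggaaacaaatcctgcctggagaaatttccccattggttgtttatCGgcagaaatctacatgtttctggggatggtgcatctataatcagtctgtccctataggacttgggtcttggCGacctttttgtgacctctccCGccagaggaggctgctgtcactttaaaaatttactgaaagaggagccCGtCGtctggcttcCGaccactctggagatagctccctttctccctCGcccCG
Hlf: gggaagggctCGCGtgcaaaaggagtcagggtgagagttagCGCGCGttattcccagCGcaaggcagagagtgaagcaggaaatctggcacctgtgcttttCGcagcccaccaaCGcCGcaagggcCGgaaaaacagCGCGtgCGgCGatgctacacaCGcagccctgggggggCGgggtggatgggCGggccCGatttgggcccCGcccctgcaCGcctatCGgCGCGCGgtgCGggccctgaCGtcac
Prdm16: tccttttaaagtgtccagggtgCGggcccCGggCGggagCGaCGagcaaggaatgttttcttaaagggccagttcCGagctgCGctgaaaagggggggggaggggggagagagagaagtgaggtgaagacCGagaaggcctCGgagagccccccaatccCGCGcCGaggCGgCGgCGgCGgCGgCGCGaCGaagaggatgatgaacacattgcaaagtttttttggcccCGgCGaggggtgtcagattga

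Hlf had the most CpG dinucleotides, 26 in 250 bases, followed by Prdm16 with 22, the 5' start of Mecom with 14, Meis1 with 13 and the internal start of Mecom with 8. The median over 32841 promoters of the same length was 6, and 90.4% of them had fewer CpG than Hlf and 57.0% fewer than the internal start of Mecom. Short motifs of hematopoietic factors were searched on both strands of these 250 bases. The ETS letters CCGGAA were found at Meis1 and Hlf and in 12.03% of all promoters, and the RUNX letters TGTGGT at Meis1 and in 14.0% of all. The MEIS letters TGACAG were found at the internal start of Mecom and in 15.9% of all promoters, and the E-box letters CATCTG at the 5' start of Mecom and in 14.4% of all. TGACGTCA, the cyclic AMP response element, was found at Hlf and in 1.55% of all promoters, and TTACGTAA, the PAR site that Hlf itself can bind, at none of the 5 and in 0.113% of all. The letters AGATAA, bound by factors of the GATA family, were at none of the 5 and in 9.99% of all promoters. Prdm16 held none of the motifs searched, and matches of different motifs in the same promoter shared no base. The related genes Mecom and Prdm16 shared an identical stretch of 24 bases just after their starts, from base 27 to 50 at the 5' start of Mecom and from base 10 to 33 at Prdm16. No other gene of the table had it. The sequences compared ended 50 bases after the start, so the stretch may be longer than was seen. Any other pair of entries from different genes shared at most 11 bases in a row.

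H3K4me3 covered more length in the adult list and H3K4me1 more in the fetal list at all 4 loci, but H3K27ac had no common direction. H3K4me3 was called at all 4 loci in both stages. Its fetal to adult ratio was 0.921 at Meis1, 0.885 at Mecom, 0.608 at Hlf and 0.936 at Prdm16, against 0.987 over all chromosomes. H3K27ac covered similar lengths at both stages at Meis1 and Prdm16, covered more at Hlf in the adult list, and covered 25759 bp in the fetal against 7305 bp in the adult list at Mecom. The fetal to adult ratio of H3K27ac length was 0.926 at Meis1 and 0.948 at Prdm16, below the 1.51 over all chromosomes. H3K27me3 was called almost only in the fetal lists. It lay over and beside the uppermost H3K4me3 regions of Mecom and Prdm16 and at the lower edge of the Meis1 window. H3K4me1 covered 82400 bp of the 4 windows in the fetal and 2560 bp in the adult list, a ratio of 32.2, but the fetal list covered 20.4 times as much as the adult list over all chromosomes.

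**Figure D1:**
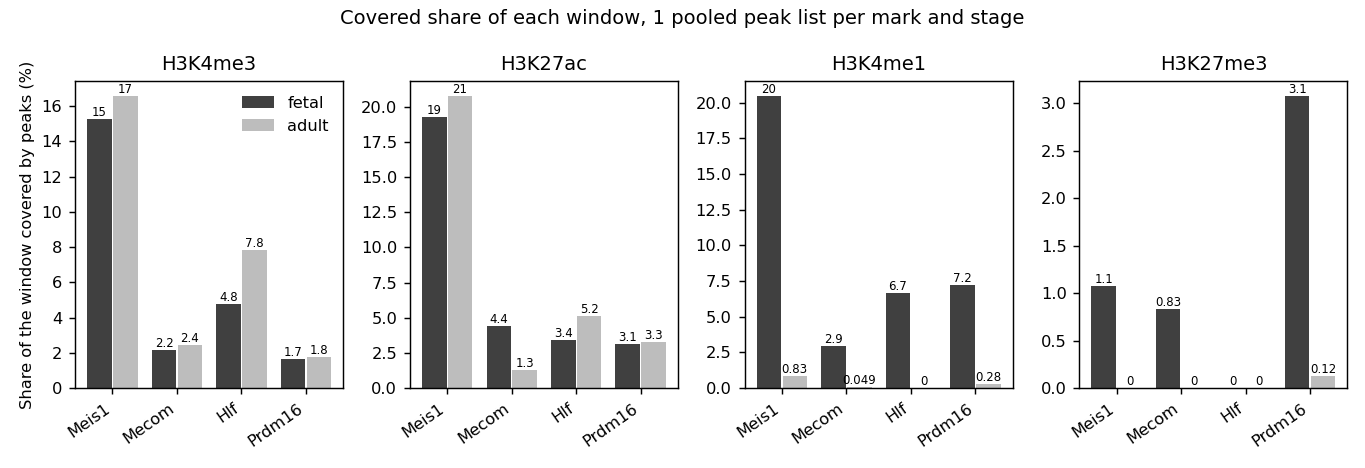
Share of each window covered by peaks (%, y axis) for each mark and gene, with fetal lists in dark and adult lists in light bars; each bar is 1 pooled list and has no error. The Mecom window has 4.44% fetal and 1.26% adult H3K27ac, while Meis1 has 19.3% and 20.8%; the y axes differ between marks.

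**Figure D2:**
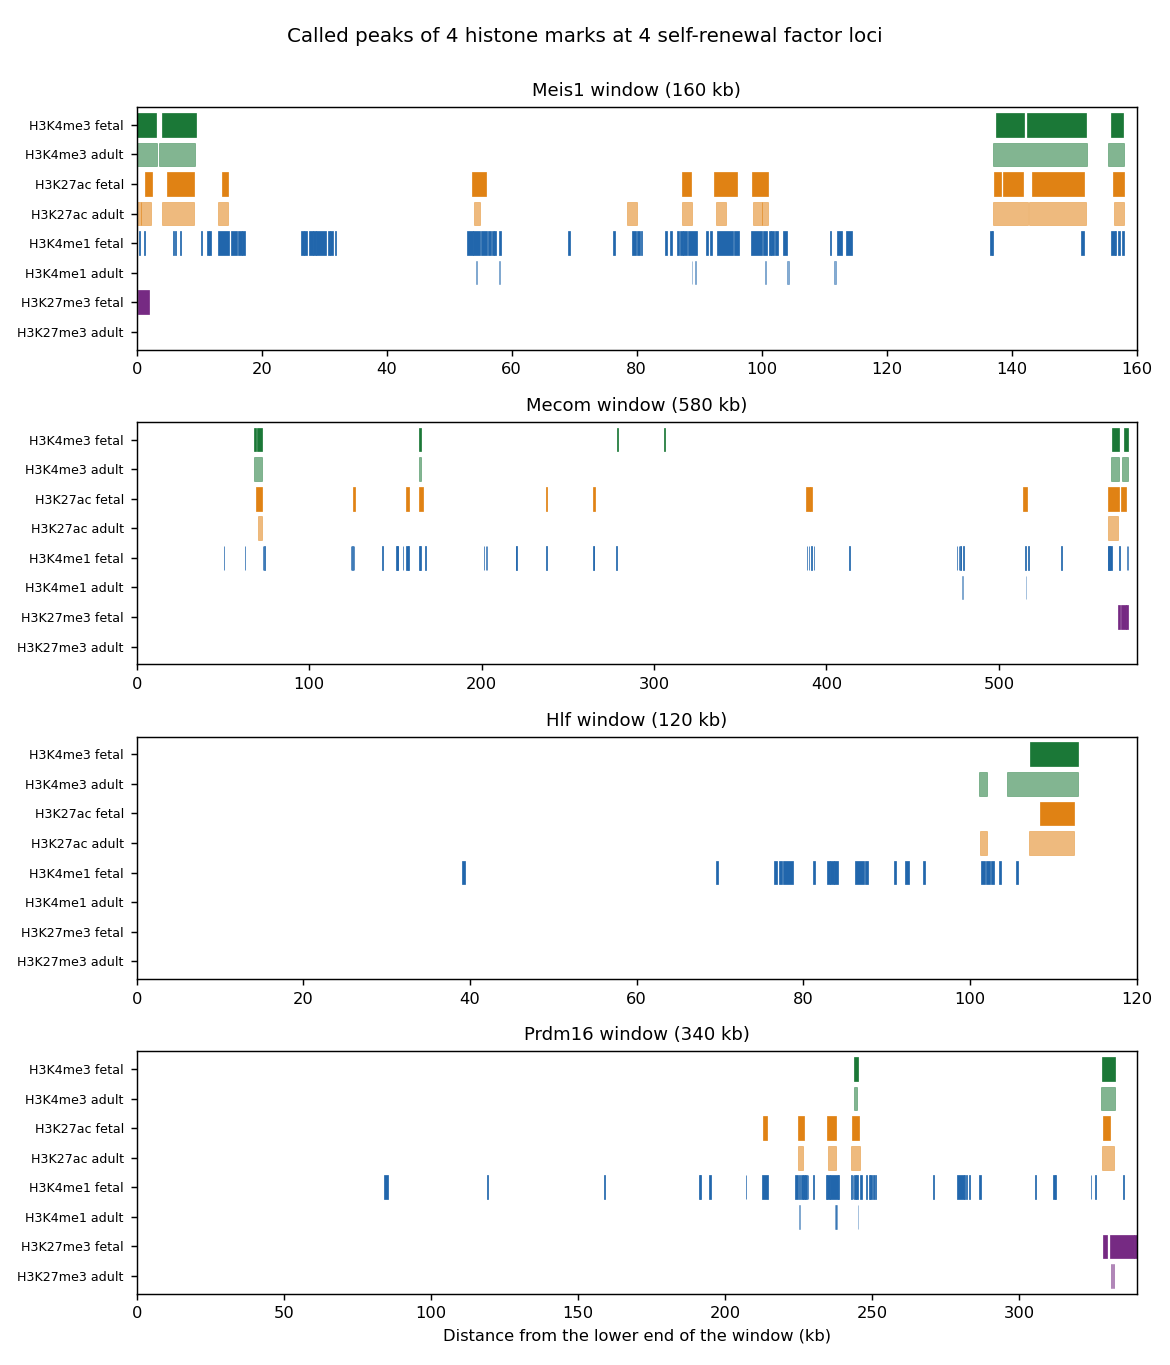
Called peaks along the 4 windows (x axis, kb from the lower end; each row is 1 mark and stage, fetal in full colour and adult in a lighter shade). H3K4me3 lies near the upper end at every locus, fetal H3K27ac is scattered through Mecom where the adult row has 2 peaks, and fetal H3K27me3 lies near the upper end of Mecom and Prdm16 and at the lower end of Meis1.

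The widest H3K4me3 peak of each locus was wide for its list, ranking between 6th and 392nd of 17104 in the fetal and between 2nd and 182nd of 16693 in the adult list. At Meis1 the adult list had a single peak of 15115 bp (chr11:18906951-18922065), the 2nd widest of all. In the fetal list the same stretch was called as a peak of 9453 bp (chr11:18912378-18921830), the 6th widest of all, and a neighbour of 4535 bp (chr11:18907444-18911978), which together covered 13988 bp of the adult peak. Below them, at the lower edge of the window, peaks of 3067 and 5400 bp in the fetal list faced peaks of 3526 and 5652 bp in the adult list (chr11:18769674-18773199 and chr11:18773620-18779422 over both stages). In RefSeq the next gene on that side of Meis1 is 8430419K02Rik, a long noncoding RNA gene, and whether these peaks belong to it was not tested. A 4th region (chr11:18925425-18928012) covered 2048 bp in the fetal and 2588 bp in the adult list.

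At Hlf the main H3K4me3 peak was 5729 bp wide in the fetal list (chr11:90247158-90252886), rank 80, and 8485 bp wide in the adult list (chr11:90244475-90252959), rank 14. The adult peak contained the whole fetal one and was wider toward lower coordinates, and a separate adult peak of 935 bp (chr11:90241081-90242015) had no fetal counterpart. The Hlf window thereby had 9420 bp of H3K4me3 in the adult and 5729 bp in the fetal list, or 1.64 times as much. Over all chromosomes the lists covered nearly equal lengths, with a fetal to adult ratio of 0.987.

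Mecom had 6 H3K4me3 regions, 4 of them found at both stages. Counted as peaks, 5 of 7 fetal ones overlapped an adult peak, against 91.0% of the fetal list. All 4 adult ones overlapped a fetal peak, against 92.8% of the adult list. The uppermost pair of regions, chr3:30404787-30409748 and chr3:30411305-30414957, held peaks of 4173 and 2303 bp in the fetal and 4962 and 3653 bp in the adult list. The lowest region, chr3:29908170-29912736, was covered by fetal peaks of 915 and 3082 bp and by 1 adult peak of 4540 bp. Between them lay a narrow region at chr3:30003829-30004815 in both lists (832 and 987 bp) and a pair of fetal peaks without an adult one, of 693 bp (chr3:30118270-30118962) and 516 bp (chr3:30145929-30146444). Their authors' scores, 65.48 and 94.58, exceeded 3.89% and 9.15% of that list. Scores are the values the authors' caller gave and are used here only to place a peak within its own list.

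Prdm16 had 1 main H3K4me3 region near the upper end, chr4:154007709-154012719, with a fetal peak of 4473 bp (rank 287) and an adult peak of 4919 bp (rank 182). A 2nd, narrow region inside the window, chr4:153923782-153925127, had 1168 bp in the fetal and 1106 bp in the adult list.

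Over the 4 windows 13 of 15 fetal H3K4me3 peaks overlapped an adult peak by at least 1 bp, against 91.0% of the whole fetal list, and 11 of 12 adult peaks overlapped a fetal one, against 92.8%. Both shares are near those of the lists. Of the 11 H3K4me3 regions found at both stages, 10 were covered over more bp in the adult list, against 56.8% of all such regions, and the exception was the narrow Prdm16 region. Summed over the windows the adult list covered 1.16 times the fetal length, 56141 against 48340 bp.

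**Figure D3:**
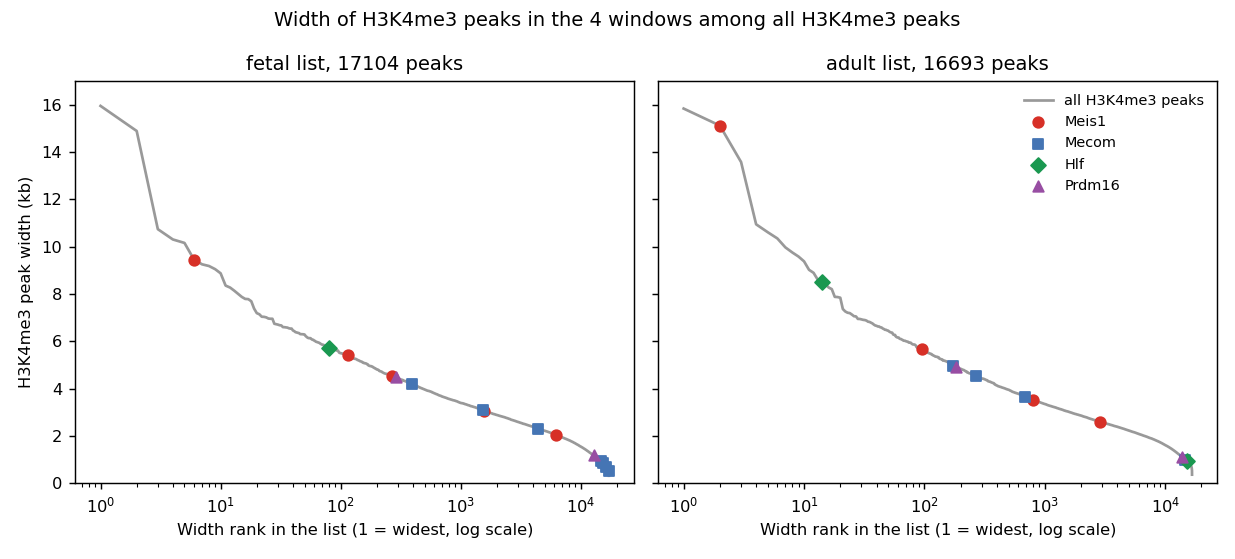
Width of H3K4me3 peaks (kb, y axis) against their rank in the fetal (left) and adult (right) list (log x axis, 1 is the widest), with all peaks as the grey line and the peaks of the 4 windows as symbols. The widest Meis1 peak holds rank 6 in the fetal and rank 2 in the adult list, and Hlf ranks 80 and 14.

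Of 12 H3K27ac regions at Meis1, 10 were found at both stages and 2 in the adult list only. Among the 6 with H3K4me3, 5 were found at both stages, against 84.2% of all such regions. The window had 11 fetal peaks over 30821 bp and 13 adult peaks over 33275 bp, and 26904 bp were covered by both. The widest H3K27ac peak sat on the widest H3K4me3 region, with 8316 bp in the fetal (chr11:18913179-18921494) and 9145 bp in the adult list (chr11:18912799-18921943), rank 20 of 18205 adult peaks. Away from H3K4me3, 6 H3K27ac regions lay in the middle of the window, and 5 of them were found at both stages. Over all chromosomes 29.9% of H3K27ac regions without H3K4me3 were found at both stages, and 61.5% in the fetal list only. No region at Meis1 was found in the fetal list only. The exception among the 6 was an adult-only region, chr11:18848444-18850088 (1645 bp), where fetal H3K4me1 covered 791 bp. The other adult-only region, chr11:18769493-18770641 (1149 bp), overlapped the H3K4me3 at the lower edge of the window.

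These regions without H3K4me3 were not equally wide at the 2 stages. The widest, chr11:18862313-18865973, had 3661 bp of H3K27ac in the fetal and 1643 bp in the adult list, and chr11:18823643-18825957 had 2315 and 1001 bp. In the opposite direction, chr11:18783017-18784637 had 941 bp in the fetal and 1584 bp in the adult list. Their adult scores were between 57.28 and 213.54, and the adult list's median was 311.35, so every adult peak among them scored below that median.

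H3K27ac at Mecom differed between the lists. The fetal list had 11 peaks over 25759 bp and the adult list 2 peaks over 7305 bp, a ratio of 3.53 where all chromosomes gave 1.51. Both adult peaks overlapped H3K4me3 and lay wholly inside fetal peaks. Near the upper end of the window the fetal peak measured 6319 bp (chr3:30403369-30409687) and the adult one 5429 bp (chr3:30403411-30408839). At the lowest H3K4me3 region they measured 3646 bp (chr3:29909038-29912683) and 1876 bp (chr3:29910610-29912485). The other 9 fetal peaks had no adult H3K27ac, so 2 of 11 overlapped an adult peak, against 65.3% of the fetal list.

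All 7 H3K27ac regions of the Mecom window without H3K4me3 were in the fetal list only, where the share over all chromosomes was 61.5%. They covered 10531 bp in the fetal list and 0 bp in the adult list. The peak with the highest score among them, 1383.5, was chr3:30228199-30230559 (2361 bp), higher than 85.4% of fetal H3K27ac peaks. A peak of 1309 bp followed directly above it (chr3:30230597-30231905). The others of the 7 scored 322.11, 293.67, 166.2, 83.76, 68.31 and 50.02, where the median of the fetal list was 293.38. The lowest, chr3:30077450-30078115 (666 bp), scored higher than only 0.0126% of that list. Fetal H3K4me1 touched each of the 7, and adult H3K4me1 only 1 (chr3:30354100-30356080, 137 bp). The widest fetal peak without an adult one was near the upper end of the window, chr3:30411002-30413866 (2865 bp), where the adult list kept H3K4me3. When each list was reduced to peaks scoring at or above its median, the log2 ratio of fetal to adult H3K27ac at Mecom was 1.17 in place of 1.82.

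H3K27ac at Hlf was confined to the H3K4me3 regions in the lists used. The fetal list had 1 peak of 4066 bp (chr11:90248382-90252447), and the adult list had 5450 bp around it (chr11:90247043-90252492) and a peak of 735 bp on the separate adult H3K4me3 peak (chr11:90241239-90241973). That smaller place had 590 bp of fetal H3K4me1 but no fetal H3K4me3 or H3K27ac. The Hlf window thus had 6185 bp of H3K27ac in the adult and 4066 bp in the fetal list, against a fetal excess over all chromosomes. With the window widened by 50 kb on each side the order was the opposite, 9854 bp in the fetal and 8086 bp in the adult list. The added flanks reach toward neighbouring genes.

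At Prdm16 the lists shared 4 of 5 H3K27ac regions. Of the 2 with H3K4me3 both were shared, against 84.2% of all such regions, and of the 3 without it 2 were, against 29.9%. A group of 3 shared regions in the middle of the window, the last of them on the narrow H3K4me3 region, had fetal and adult H3K27ac of 2000 and 1805 bp (chr4:153904860-153906949), 2872 and 2690 bp (chr4:153914800-153917675), and 2290 and 2828 bp (chr4:153922914-153925741). A fetal peak of 1174 bp at the lower side of this group (chr4:153893061-153894234) had no adult one. At the main H3K4me3 region H3K27ac covered 2236 bp in the fetal (chr4:154008640-154010875) and 3830 bp in the adult list (chr4:154008318-154012147), which places the adult peak above 96.3% and the fetal one above 65.5% of their lists in width.

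Over the 4 windows 18 of 28 fetal H3K27ac peaks overlapped an adult peak, close to the 65.3% of the whole list, and 18 of 21 adult peaks overlapped a fetal one, against 88.6%. The loci differed within this total, since 16 of the 17 fetal peaks outside Mecom overlapped an adult peak and 2 of 11 at Mecom did. Without Mecom the windows had 45459 bp of H3K27ac in the fetal and 50613 bp in the adult list, and with it 71218 and 57918 bp. Of the 17 regions found at both stages, 9 were covered over more bp in the adult list, against 24.8% of all such regions.

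Most H3K4me3 peaks of the windows overlapped H3K27ac of the same stage. Of the H3K4me3 peaks, 13 of 15 fetal ones overlapped fetal H3K27ac, against 74.2% of the fetal list, and 10 of 12 adult ones overlapped adult H3K27ac, against 75.7%. Of the H3K27ac peaks, 13 of 28 fetal ones overlapped fetal H3K4me3, against 53.2% of the fetal list, and 12 of 21 adult ones overlapped adult H3K4me3, against 70.5%. Merged over stages, 14 H3K27ac regions had H3K4me3 at either stage. Of these, 10 were found at both stages, against 84.2% of all such regions, and 2, both at Mecom, in the fetal list only, against 8.04%.

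**Figure D4:**
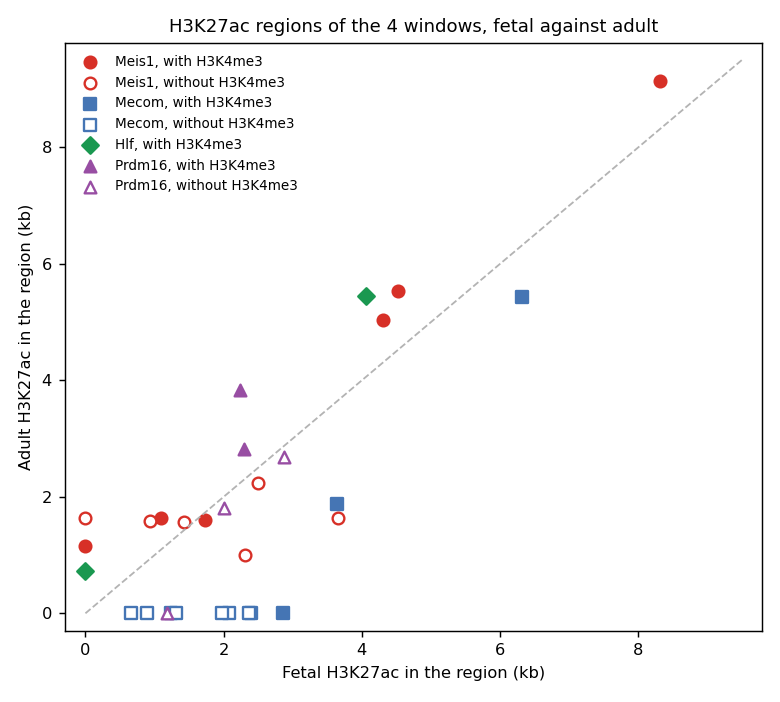
H3K27ac length in each region of the 4 windows (kb), fetal on the x axis and adult on the y axis; filled symbols overlap H3K4me3 at either stage, open ones do not, and the dashed line marks equal length. The 9 Mecom regions and 1 Prdm16 region without adult H3K27ac lie at 0 on the y axis, and 2 Meis1 regions and 1 Hlf region lie at 0 on the x axis. Open Meis1 symbols fall on both sides of the line.

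H3K4me1 was listed mostly in the fetal data. The fetal list had 58 peaks at Meis1, 46 at Mecom, 19 at Hlf and 42 at Prdm16, and the adult list 7, 2, 0 and 5. Adult peaks were narrow, between 137 and 307 bp. The whole adult list had a median width of 193 bp and the fetal list of 429 bp. With equal numbers of top-scoring peaks from both lists, the log2 ratio of fetal to adult H3K4me1 over the 4 windows was 2.89 in place of 5.01. No fetal H3K4me1 peak was then left at Mecom or Hlf. Of the 165 fetal peaks 7 overlapped an adult peak, against 9.22% of the fetal list, and of the 14 adult peaks 10 overlapped a fetal one, against 87.4% of the adult list.

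Fetal H3K4me1 was found at every H3K27ac region without H3K4me3 and also beyond them. All 16 H3K27ac regions of the windows without H3K4me3 touched fetal H3K4me1, including the 8 found in the fetal list only, and 5 of the 16 touched adult H3K4me1. Over all chromosomes 88.3% of H3K27ac regions without H3K4me3 touched fetal and 26.9% adult H3K4me1. Counted as peaks, 22 of 28 fetal H3K27ac peaks overlapped fetal H3K4me1, against 88.1% of their list, and 5 of 21 adult ones overlapped adult H3K4me1, against 20.7%. Conversely, 46 of 165 fetal H3K4me1 peaks overlapped fetal H3K27ac, against 41.4% of the list, and 113 of 165 overlapped no H3K27ac of either stage, against 55.2% of the list. Fetal H3K4me3 was overlapped by 19 of the 165, against 27.7% of the list. Of the 14 adult H3K4me1 peaks 6 overlapped adult H3K27ac, against 45.2% of their list. The widest fetal H3K4me1 peaks of Meis1 (2685 bp, chr11:18862761-18865445), Prdm16 (2475 bp, chr4:153915851-153918325) and Mecom (1145 bp, chr3:29995942-29997086) lay on fetal H3K27ac. At Prdm16 a nearly equal peak of 2413 bp (chr4:153958896-153961308) had no H3K27ac at either stage.

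At Hlf fetal H3K4me1 and H3K27ac were called in separate places. None of its 19 fetal H3K4me1 peaks overlapped fetal H3K27ac, where 41.4% of the fetal list did, or fetal H3K4me3, where 27.7% did. Adult H3K27ac was overlapped by 2, and 17 overlapped no H3K27ac of either stage, against 55.2% of the list. The window offered little to overlap, with 1 fetal H3K27ac peak (4066 bp) inside 1 fetal H3K4me3 peak (5729 bp). The widest of the 19 H3K4me1 peaks measured 1138 bp (chr11:90226164-90227301). In the adult list the widest H3K4me1 peaks were 307 bp at Meis1 (chr11:18881618-18881924), 208 bp at Prdm16 (chr4:153917362-153917569) and 148 bp at Mecom (chr3:30318830-30318977), and Hlf had none. No adult H3K4me1 peak in the windows overlapped adult H3K4me3, against 15.1% of the adult list.

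H3K27me3 was listed at 3 loci in the fetal data and at 1 in the adult data. Fetal peaks covered 10471 bp at Prdm16, 4805 bp at Mecom and 1727 bp at Meis1, and adult peaks covered 417 bp, all at Prdm16. Hlf had none at either stage. How often other stretches of these lengths had none is given below. The ratio of fetal to adult length over the 4 windows was 40.8, against 4.10 over all chromosomes. It rests on 2 narrow adult peaks of 161 and 256 bp. Adult H3K27me3 peaks were narrow throughout the genome. The whole adult list had 22964 peaks with a median width of 278 bp and a widest of 5651 bp. The fetal list had 14823 peaks, with a median of 1406 bp and a widest of 69880 bp. Of the 7 fetal peaks 1 overlapped an adult peak, against 35.5% of the list, and both adult peaks overlapped a fetal one, against 92.4% of theirs.

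At Prdm16 the widest fetal H3K27me3 peak, chr4:154010765-154019056 (8292 bp), began inside the main H3K4me3 region and ran to within 1 kb of the upper end of the window. It was wider than 95.7% of fetal H3K27me3 peaks. Smaller fetal peaks lay on the H3K4me3 region (1350 bp, chr4:154008514-154009863) and at the window's end (829 bp, chr4:154019108-154019936). The adult list had 161 and 256 bp (chr4:154011284-154011444 and chr4:154011890-154012145), both inside the widest fetal peak. With the window widened by 50 kb on each side, H3K27me3 covered 14331 bp in the fetal and 944 bp in the adult list. The 50 kb below the window held 3218 bp in the fetal and 527 bp in the adult list, and the 50 kb above it 642 and 0 bp.

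At Mecom 3 fetal H3K27me3 peaks of 861, 2846 and 1098 bp (chr3:30409171-30410031, chr3:30410704-30413549 and chr3:30413763-30414860) lay between and over the uppermost pair of H3K4me3 regions, and the adult list had none. At Meis1 the fetal peak (chr11:18770285-18772011) lay wholly on the H3K4me3 peak at the lower edge of the window. The wide H3K4me3 region of Meis1 had no H3K27me3 in either list.

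H3K27ac within these fetal H3K27me3 peaks differed in direction between loci. Within the 10471 bp at Prdm16, H3K27ac covered 1335 bp in the fetal and 2733 bp in the adult list, and within the 1727 bp at Meis1 703 and 1708 bp. Within the 4805 bp at Mecom it covered 3169 bp in the fetal and 0 bp in the adult list, although H3K4me3 covered 2377 and 3921 bp there. Within all fetal H3K27me3 peaks of the list, H3K27ac covered 1180822 bp in the fetal and 1427474 bp in the adult list. The region chr3:30411305-30414957 of Mecom was thus listed with all 4 marks in the fetal lists, over 2303 bp for H3K4me3, 2562 bp for H3K27ac, 463 bp for H3K4me1 and 3343 bp for H3K27me3, and with H3K4me3 alone in the adult lists, over 3653 bp. Over all chromosomes, adult H3K27ac covered 70.6% of the adult H3K4me3 length, adult H3K27me3 4.57% and adult H3K4me1 1.03%. Marks that overlap in a list of pooled cells need not lie on the same nucleosomes or in the same cells.

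Bivalent H3K4me3 peaks, which overlap H3K27me3 of the same stage, numbered 4 of 15 in the fetal list, against 22.3% of all fetal H3K4me3 peaks, and 1 of 12 in the adult list, against 12.9%. The fetal ones were the lowest Meis1 peak, both uppermost Mecom peaks and the main Prdm16 peak, and the adult one was the main Prdm16 peak. Of the 7 fetal H3K27me3 peaks 6 overlapped fetal H3K4me3, against 26.3% of their list, and both adult ones overlapped adult H3K4me3, against 18.6%. The 6 were 1 peak at Meis1 and neighbouring peaks at Mecom (3) and Prdm16 (2). The windows were laid around genes and the whole list was not, so these shares are not like for like. Of the 28 fetal H3K27ac peaks 4 overlapped fetal H3K27me3, against 5.03% of their list, and 1 of 21 adult ones overlapped adult H3K27me3, against 3.55%.

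**Figure D5:**
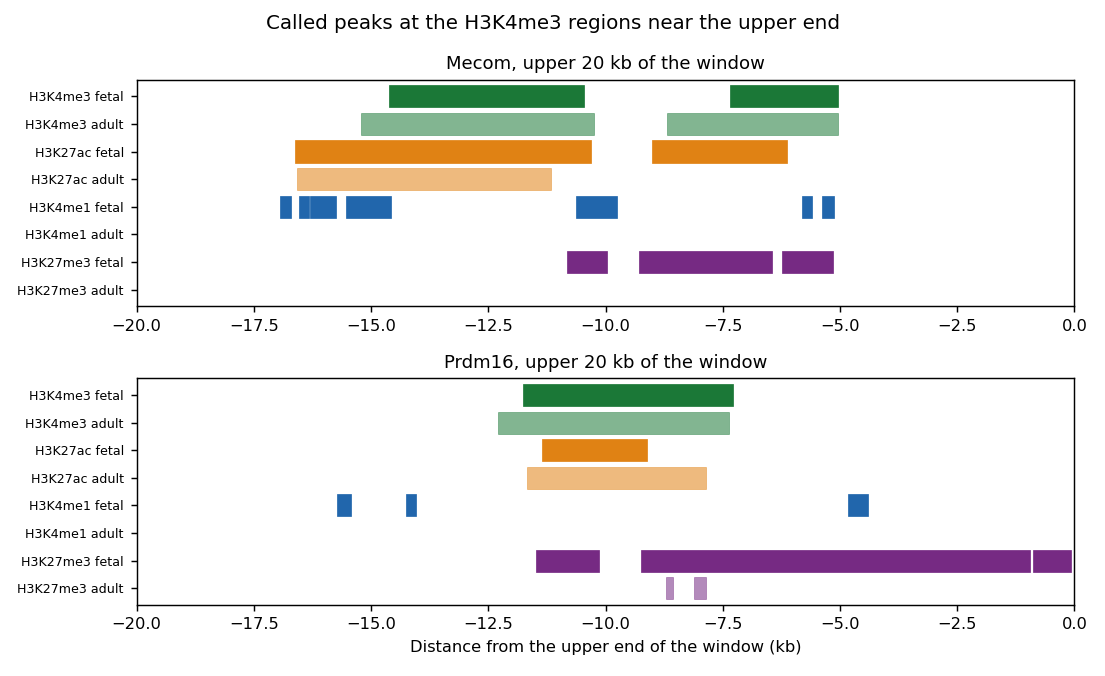
Called peaks in the upper 20 kb of the Mecom (top) and Prdm16 (bottom) windows (x axis, kb from the upper end; each row is 1 mark and stage). Fetal H3K27me3 lies on the H3K4me3 regions of both genes; adult H3K27ac is absent from the right-hand Mecom region and wider than fetal H3K27ac at Prdm16.

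For scale, the genome was divided into consecutive tiles of each window's length, and tiles with an H3K4me3 peak at either stage were kept. The Meis1 window had more of its length covered by H3K4me3 than 99.7% of 7466 tiles in the fetal and 99.9% in the adult list, and by H3K27ac than 98.8% and 99.8%. Its fetal H3K4me1 exceeded that of 98.1% of tiles. Hlf exceeded 82.3% of 8721 tiles for fetal and 94.2% for adult H3K4me3. The Mecom window exceeded 79.1% of 3205 tiles for fetal and 55.2% for adult H3K27ac, and Prdm16 79.0% of 4636 tiles for fetal H3K27me3. For fetal H3K27me3 Meis1 exceeded 57.6% and Mecom 49.3% of their tiles, and 54.3% of tiles of Hlf length had none. In the adult list 62.4%, 36.7% and 67.3% of tiles of Meis1, Mecom and Hlf length had no H3K27me3. Windows were laid around genes and tiles were not, so these positions describe the loci and are no test.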

How the data were processed

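Chromatin immunoprecipitation sequencing of 4 histone marks was represented by 8 deposited lists, 1 per mark and stage. Each gives the position and score of every peak. The lists are titled combined, so each was taken as 1 call by the authors on both replicates. The score is the value the authors' peak caller deposited and has no stated unit. Peak names begin with MACS, per the deposited lists. Bowtie2 2.2.2 and mm9 are named in the submitters' processing notes, per the labels. The caller's version, settings and control are not given in the sources used here. Input samples, coverage and single replicates were not analysed here.

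Only chromosomes 1 to 19, X and Y were used. Covered length is the union of peaks clipped to a window, and an overlap is at least 1 bp. A region merges overlapping peaks of both stages. Coordinates are 1-based. No genome or annotation of mm9 was used, so other genes of the self-renewal programme were left out. Gene names and promoters came from RefSeq GRCm38.p6, in which all 4 genes matched. Peaks named with coordinates were all H3K4me3 peaks, the widest H3K27ac, H3K4me1 and H3K27me3 peak per window and stage, the widest H3K27ac peak without one at the other stage, and other regions that were picked after their values were seen. Windows and lists were chosen with earlier results of these data known. Alternatives were peaks at or above each list's median score (better-scoring peaks), equal numbers of top-scoring peaks, merging within 1 kb, windows widened by 50 kb, peaks wholly inside a window, 50% or 500 bp of overlap, and windows left out in turn. Interval code was tested on simulated data. Calculations used Python 3.11.15, numpy 2.4.6, scipy 1.17.1 and matplotlib 3.10.9.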

Additional observations from a re-analysis of the deposited data

How the results depend on the processing

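Each window left out in turn was an alternative chosen after the data had been seen, and all other settings had been listed earlier. No paired analysis was possible because a list stands for both replicates together, and for that reason none was left out either. A ratio was taken as moved at more than 1.5-fold and a share when it left its 95% exact binomial interval. That interval treats the peaks of a list as independent, which neighbouring peaks are not, so it is a working limit and no measure of error. It is wide where peaks are few: a change of the H3K27me3 share from 14.3% to 33.3% with merged peaks stayed within it. Unless stated, the cause was not tested. Values are over the 4 windows unless a gene is named, and ratios are log2 fetal to adult covered length.

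H3K27ac went from 0.30 to -0.15 without Mecom. With the better-scoring peaks it went from -0.11 to 0.16 at Meis1 and from -0.08 to 0.53 at Prdm16, and with wider windows from -0.61 to 0.29 at Hlf. H3K4me1 went from 5.01 to 5.87 with the better-scoring peaks and to 2.89 with equal numbers. With equal numbers the 19018 bp of fetal H3K4me1 left were 11315 bp at Meis1 and 7703 bp at Prdm16. None was left at Mecom, where the adult list had 285 bp, or at Hlf, so no ratio could be formed there. H3K27me3 went from 5.35 to 6.05 with equal numbers, 4.45 with merged peaks and 4.47 with wider windows. With the better-scoring peaks, and without Prdm16, no adult H3K27me3 was left in the windows, so no ratio could be formed. The ratio of H3K4me3 stayed between -0.63 and -0.13 under all 9 alternatives, but at Mecom alone it went from -0.18 to -0.86 with the better-scoring peaks. In that setting Mecom and Meis1 (-0.65) lay further from 0 than Hlf (-0.57), which at -0.72 was furthest as reported.

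The share of fetal peaks with an adult peak went from 86.7% to 100% for H3K4me3, both with the better-scoring peaks and without Mecom. For H3K27ac it went from 64.3% to 41.2% without Meis1 and 94.1% without Mecom. For H3K4me1 it went from 4.24% to 27.3% with equal numbers, 9.33% with merged peaks and 0% with 50% covered. For H3K27me3 it went from 14.3% to 0% with the better-scoring peaks, with 50% covered and without Prdm16. Fetal bivalent peaks went from 4 to 1 with the better-scoring peaks. Adult ones went from 1 to 0 with the better-scoring peaks and with 500 bp of overlap, and to 2 with wider windows.

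The other 56 of 76 alternative values over the 4 windows stayed within these limits. Read depth is unknown, and a peak missing from a list shows only that none was called.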
